A study of Mus musculus with 6 samples.

Results

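Genes of late G2 and mitosis were followed in cultured mouse NSCs with and without miR-151. They are *Mki67*, *Top2a*, *Aurka*, *Tpx2*, *Nusap1*, *Hmmr*, *Ckap2*, *Ckap2l*, *Bora* and *Dlgap5*, 10 of the 32493 genes in the count table, and they were taken by name. All 10 were counted in every library and all 10 passed the filter on low counts, which left 16710 genes to test. The NSCs came from E14.5 embryos on a C57BL/6J background, were dissected around the lateral ventricles and were passaged in medium with EGF and bFGF. Embryos of the cko group carried miR-151 alleles flanked by loxP sites and the Emx1-IRES-Cre driver. This driver is active in the dorsal telencephalon, so cells dissected from elsewhere would keep the alleles. The ctrl embryos, labelled wt, carried the same floxed alleles without Cre, and the paper describes them as littermates of the cko embryos. The 3 cko libraries were set against ctrl libraries 1 and 3, since the column of ctrl replicate 2 equalled the rounded-up mean of these 2 in 32493 of 32493 genes and was counted in no n. The miR-151 gene itself was not analysed here, so the deletion was not checked in these libraries.

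Total counts ran from 17883796 to 23335736 per library, which put the floor of 3 counts at 0.129 to 0.168 normalized CPM (counts scaled to library size). The 11 NSC markers summed to 7243 and 5926 normalized CPM in ctrl and to 8812, 8423 and 8317 in cko libraries, without overlap. Of these, 4 were higher and 1 was lower in cko by edgeR (adjusted p under 0.05), where 7.86% of all tested genes were higher and 8.57% lower. Across the 11, log2 fold changes ran from -1.04 to 0.98, and 8 were above 0. Within this list *Sox2* was at a mean of 570 in ctrl and 617 in cko, and *Nes* at 504 and 992. Markers of other cells moved with genotype. In the astrocyte list 7 of 10 genes were lower, none was higher in edgeR (0 also at an unadjusted p under 0.05), and the summed level was 5023 to 5794 normalized CPM in ctrl against 2335 to 3379 in cko. In the oligodendrocyte lineage list 7 of 12 genes were lower and 2 higher. Its median log2 fold change was -1.34, with a range from -6.38 to 0.63. The summed level of this list overlapped between genotypes, with 3302 to 3897 against 3516 to 3766. Of 8 tested neuron markers, 2 were higher and 1 lower, with sums of 311 to 312 against 340 to 385. Microglia markers summed to at most 1.23 normalized CPM, with *Cx3cr1* and *Tmem119* at 0, endothelial markers to at most 6.76, with *Cdh5* at 0, and mural and fibroblast markers to at most 4.002. The summed level of 4 Y-linked genes was 94.7 to 116 normalized CPM in ctrl and 230 to 256 in cko, and *Xist* was at 2557 to 2889 against 787 to 894. Each library thus held transcripts of both kinds, as in a mix of male and female cells, and neither overlapped between genotypes. The part of these differences in the results below was not tested. In bulk RNA, a larger share of cycling cells and more RNA per cycling cell cannot be told apart.

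Transcripts of mitotic genes are low in G1 and accumulate as cells pass through S phase towards division. Their promoters typically carry the cell cycle genes homology region (CHR), read by the MuvB complex with B-MYB and FOXM1, and CCAAT boxes bound by NF-Y. During mitosis, TPX2 is freed from importins by RanGTP near chromosomes, activates the kinase Aurora A and starts microtubule growth. BORA helps Aurora A to activate PLK1. NUSAP1, HMMR, DLGAP5 (HURP) and the CKAP2 proteins bind and stabilize spindle microtubules. KI67 coats mitotic chromosomes, and topoisomerase IIα untangles their DNA. In the developing cortex KI67 marks cycling progenitors.

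By edgeR's quasi-likelihood test, each of the 10 genes rose in cko NSCs (adjusted p under 0.05), where 7.86% of all tested genes rose, 8.57% fell and 16.4% were called in either direction. None of the 10 fell. The 10 genes were chosen with earlier results of these data known, so these shares are not an independent test of them. Their log2 fold changes ran from 0.66 (*Bora*) to 1.42 (*Dlgap5*), with a median of 1.24, where the median of all 16710 genes was -0.0026. The 3 cko libraries lay above both ctrl libraries for each of the 10 genes, as they did in 25.4% of all tested genes, while 24.3% had all cko libraries below both ctrl libraries. The study's own rule asks for an unadjusted p under 0.01 and a log2 difference past 0.9. Of the 10, 8 met it in the upward direction, against 2.39% of all genes upward, 4.17% downward and 6.55% in either direction, and *Ckap2* and *Bora* fell short of its fold change. Standard errors were 0.11 to 0.17. Raw counts of these genes ran from 526 to 16444 a library, so that all lay far above the floor. Without cko library 2, and equally without cko library 3, 8 of the 10 were called, and *Ckap2* and *Bora* were not.

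**Figure D1:**
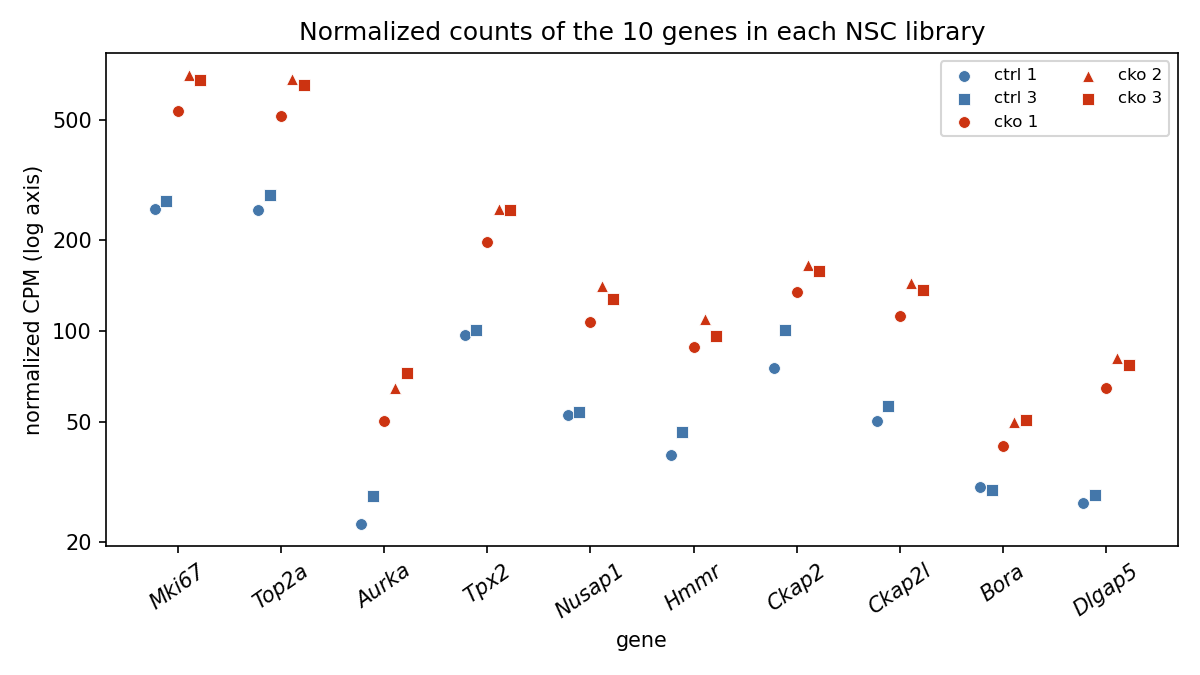
Normalized CPM (log axis) of each of the 10 genes in ctrl libraries 1 and 3 (blue) and cko libraries 1, 2 and 3 (red), with a point for each library. The red points lie above the blue points for all 10 genes, from *Bora* (at most 30.4 in ctrl and at least 41.6 in cko) to *Mki67* (at most 269 and at least 539).

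**Figure D2:**
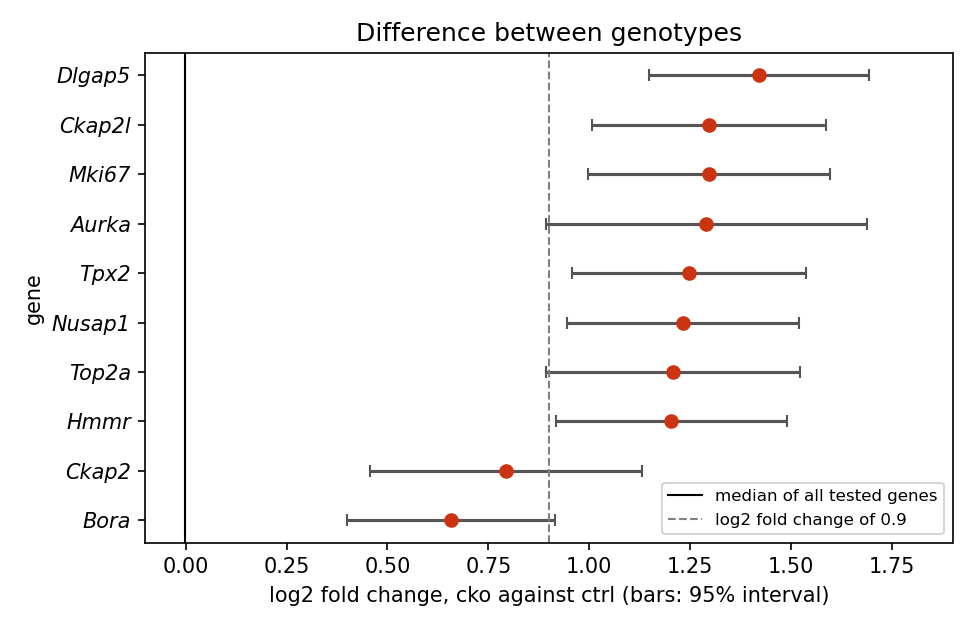
Log2 fold change of cko against ctrl NSCs for the 10 genes, with 95% intervals from edgeR as bars. *Ckap2* and *Bora* lie to the left of the dashed line at 0.9, and the other 8 lie between 1.20 and 1.42.

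*Mki67*, which encodes the proliferation antigen KI67, had the most reads in ctrl library 1 and in every cko library, and *Top2a* had the most in ctrl library 3. It was counted at 254 and 269 normalized CPM in ctrl libraries 1 and 3 and at 539, 705 and 683 in cko libraries 1, 2 and 3. The lowest cko library was thus 2.001 times the highest ctrl library. The log2 fold change of *Mki67* was 1.297 (edgeR adjusted p = 0.00192, standard error 0.13). *Top2a*, for the topoisomerase that separates sister DNA strands, followed it closely, with 253 and 283 normalized CPM in ctrl and 516, 683 and 655 in cko libraries. Its log2 fold change was 1.21 (edgeR adjusted p = 0.00253, standard error 0.13), a 2.31-fold difference with a 95% interval of 0.89 to 1.52 on the log2 scale. The ctrl libraries differed by 1.06 times in *Mki67* and by 1.12 times in *Top2a*, and the cko libraries by 1.31 and 1.33 times.

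The Aurora A module was read in *Aurka*, its activator *Tpx2* and the PLK1 cofactor *Bora*. *Aurka* was at 23.0 and 28.3 normalized CPM in ctrl and at 50.4, 64.9 and 72.4 in cko libraries. Its log2 fold change of 1.29 had the largest standard error of the 10 genes (0.17, with an edgeR adjusted p = 0.00431). *Tpx2* was at 97.3 and 101 normalized CPM in ctrl and at 198, 255 and 253 in cko libraries. The log2 fold change of *Tpx2* was 1.25 (edgeR adjusted p = 0.00192, standard error 0.12). *Bora* was nearly level between ctrl libraries, at 30.4 and 29.8 normalized CPM, and was at 41.6, 49.98 and 50.7 in cko libraries. It had the smallest change of the 10, a log2 fold change of 0.66 (edgeR adjusted p = 0.00944, standard error 0.11, 95% interval 0.40 to 0.91). Without cko library 2 or 3 the log2 fold change of *Bora* was 0.61 or 0.60, and its adjusted p was 0.0583 or 0.0582 in edgeR.

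Among the spindle microtubule binders, *Dlgap5* moved most. This gene encodes HURP, which bundles kinetochore fibres near chromosomes, and it was at 27.0 and 28.7 normalized CPM in ctrl and at 64.8, 81.4 and 77.0 in cko libraries. Its log2 fold change of 1.42 (edgeR adjusted p = 0.00107, standard error 0.12) exceeded that of 99.1% of tested genes. *Nusap1*, for a protein that links microtubules to chromosomes, was at 52.6 and 54.1 normalized CPM in ctrl and at 107, 141 and 128 in cko libraries, a log2 fold change of 1.23 (edgeR adjusted p = 0.00192, standard error 0.12). *Hmmr*, for the hyaluronan-mediated motility receptor that also sits on spindle poles, was at 38.8 and 46.4 in ctrl and at 88.5, 109 and 96.0 in cko libraries. Its log2 fold change was 1.204 (edgeR adjusted p = 0.00207, standard error 0.12). All 3 genes had cko libraries at least 1.91 times the higher ctrl library.

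The related cytoskeleton-associated proteins *Ckap2* and *Ckap2l* had unequal log2 fold changes, but their 95% intervals overlapped and the difference was not tested. *Ckap2l*, which encodes the spindle protein also called radmis, was at 50.5 and 56.4 normalized CPM in ctrl and at 113, 145 and 136 in cko libraries. Its log2 fold change was 1.298 (edgeR adjusted p = 0.00174, standard error 0.12, 95% interval 1.01 to 1.59). *Ckap2* was at 75.6 and 101 normalized CPM in ctrl libraries 1 and 3, the widest ctrl spread of the 10 genes (1.34 times), and at 135, 166 and 159 in cko libraries. Its log2 fold change was 0.79 (edgeR adjusted p = 0.0124, standard error 0.14, 95% interval 0.46 to 1.13). The adjusted p of *Ckap2* was 0.0684 without cko library 2 and 0.0679 without cko library 3 in edgeR, with log2 fold changes of 0.72 and 0.75.

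The spread within a genotype ran in parallel across the 10 genes. Library 1 was the lowest cko library in all 10, and the highest library was cko 2 in 8 genes and cko 3 in *Aurka* and *Bora*. Among ctrl libraries, library 1 was the lower in 9 genes and library 3 in *Bora*. The share of all tested genes with this order was not computed. Outside the 10, cko library 1 was also the lowest cko library in *Tacc3* and *Ckap5*, but not in *Nedd9* or *Ppp6c*. The highest cko library was 1.22 to 1.44 times the lowest, and the ctrl libraries differed by 1.02 to 1.34 times. Summed over the 10 genes, the level was 902 and 998 normalized CPM in ctrl and 1851, 2400 and 2310 in cko libraries.

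Levels were compared between genes per length, as RPKM (normalized CPM per kilobase of exon). In ctrl NSCs *Top2a* was highest at 29.7 ± 2.32 (SD, n = 2), followed by *Ckap2* at 27.5 ± 5.64 and *Mki67* at 26.0 ± 1.09. The libraries of *Ckap2* overlapped those of its neighbours in this order. Then came *Tpx2* (21.2), *Ckap2l* (17.0), *Nusap1* (13.1), *Aurka* (10.1), *Hmmr* (7.84), *Bora* (5.84) and *Dlgap5* (4.09), none of which overlapped its neighbour. In cko NSCs *Top2a* stood at 68.6 ± 9.96 (SD, n = 3) and *Mki67* at 63.8 ± 8.98, with overlapping libraries. *Ckap2*, at 47.6 ± 5.11 RPKM, was now below *Tpx2* at 50.3 ± 6.91, and *Dlgap5*, at 10.9 ± 1.26, was above *Bora* at 9.20 ± 0.98, although the libraries overlapped within both pairs.

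Ratios of RPKM within a library describe pairs of these genes and their partners. The pairs were chosen after their values were seen, and no test was made. How often the ratio of any pair of genes differs without overlap was not computed. *Tpx2* to *Aurka* was 2.29 and 1.93 in ctrl and 2.12, 2.12 and 1.89 in cko libraries, and the genotypes overlapped. *Bora* to *Aurka* was 0.649 and 0.517 in ctrl and 0.405, 0.378 and 0.344 in cko libraries, without overlap. *Ckap2* to *Ckap2l* was 1.46 and 1.75 in ctrl and 1.17, 1.12 and 1.14 in cko libraries, again without overlap. *Top2a* to *Top2b*, the paralog that is also made outside the cell cycle, was 1.05 and 1.35 in ctrl and 1.88, 2.38 and 2.23 in cko libraries. *Plk1* to *Bora* was 2.89 and 3.38 in ctrl and 4.41, 4.98 and 4.43 in cko libraries. *Top2a* to *Mki67* was 1.11 and 1.17 in ctrl and 1.07, 1.08 and 1.07 in cko libraries. This pair did not overlap either, although its log2 fold changes differed by only -0.09.

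The promoters were read for the elements that mitotic genes are known to share. RefSeq windows of 300 bases, 250 before and 50 after a start, were listed for 7 of the 10 genes, and *Tpx2*, *Bora* and *Dlgap5* had no entry. The CHR was searched as the letters TTTGAA and also in the variant form TTCGAA, and the NF-Y box was searched as the letters CCAAT, each on both strands, and these motifs do not contain each other. A CHR match was present in 6 of the 7 windows, against 19.2% of all 32851 windows and 13.6% of the 14465 windows of tested genes. CCAAT was present in the same 6, against 37.4% and 37.6%, and both motifs together against 7.52% and 5.70%. *Nusap1* had neither. *Top2a* had 4 CHR and 6 CCAAT matches, *Mki67* 2 and 3, *Ckap2l* 2 and 3, *Hmmr* 1 and 5, *Aurka* 1 and 2, and *Ckap2* 1 and 1. The *Aurka* match to the CHR began 33 bases after the RefSeq start, which lies 35 bases upstream of the GENCODE start. A match is a description of the letters and was not tested as a site.

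The 250 bases before the RefSeq start are shown for the 4 genes with the most matches, 5′ to 3′ on the coding strand, which is the minus strand of GRCm38.p6 for all 4. Capitals mark matches to the CHR and the NF-Y box on either strand, so that a box on the opposite strand appears as its reverse complement. They lie at chr11:99024190-99024439 (*Top2a*), chr7:135716380-135716629 (*Mki67*), chr2:129297213-129297462 (*Ckap2l*) and chr11:40733438-40733687 (*Hmmr*).
Top2a: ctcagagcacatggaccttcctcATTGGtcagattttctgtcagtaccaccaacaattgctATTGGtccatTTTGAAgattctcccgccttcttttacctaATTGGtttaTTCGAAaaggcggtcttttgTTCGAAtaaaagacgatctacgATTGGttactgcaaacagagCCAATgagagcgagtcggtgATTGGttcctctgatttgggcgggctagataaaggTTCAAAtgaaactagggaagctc
Mki67: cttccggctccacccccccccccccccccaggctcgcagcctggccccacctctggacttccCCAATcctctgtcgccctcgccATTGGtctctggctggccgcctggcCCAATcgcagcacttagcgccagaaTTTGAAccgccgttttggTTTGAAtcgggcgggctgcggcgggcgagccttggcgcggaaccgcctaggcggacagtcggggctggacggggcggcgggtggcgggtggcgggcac
Ckap2l: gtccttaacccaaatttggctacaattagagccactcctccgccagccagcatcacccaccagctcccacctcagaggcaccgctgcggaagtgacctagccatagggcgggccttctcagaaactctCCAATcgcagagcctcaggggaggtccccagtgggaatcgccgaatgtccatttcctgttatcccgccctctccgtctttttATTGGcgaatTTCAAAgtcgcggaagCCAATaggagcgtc
Hmmr: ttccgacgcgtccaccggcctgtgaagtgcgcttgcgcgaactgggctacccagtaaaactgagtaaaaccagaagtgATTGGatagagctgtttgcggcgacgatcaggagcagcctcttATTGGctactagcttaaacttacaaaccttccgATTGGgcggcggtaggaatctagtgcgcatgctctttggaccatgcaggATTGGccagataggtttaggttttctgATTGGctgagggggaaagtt
In *Top2a* the boxes recur along the whole stretch, and in *Mki67* 2 CHR matches follow 3 CCAAT boxes. *Ckap2l* has a CHR match between a pair of CCAAT boxes close to the start. The CHR match of *Hmmr* begins 9 bases after the start, beyond the end of the stretch shown, so its capitals mark CCAAT boxes alone.

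**Figure D3:**
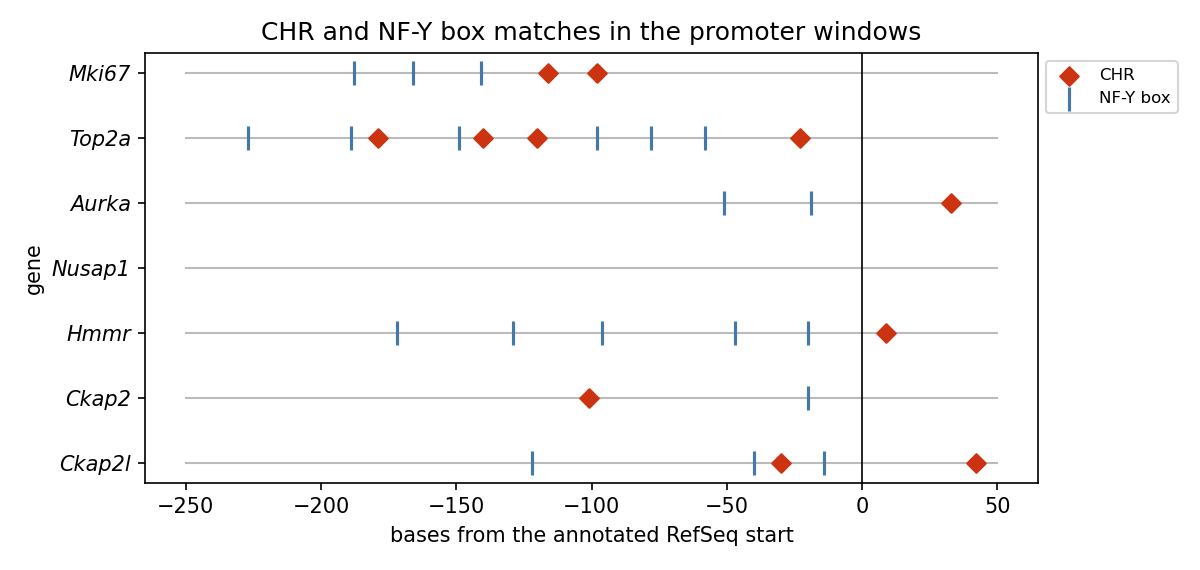
Positions of CHR (red diamonds) and NF-Y box (CCAAT, blue bars) matches in the 7 promoter windows, in bases from the RefSeq start, with a grey line for each window. The windows of 6 genes hold both motifs, *Top2a* has the most with 4 and 6, and *Nusap1* has none.

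Transcription regulators of mitotic genes were read in the same fit. Whether they act at these promoters was not tested. Of 12 tested genes of the MuvB, B-MYB and FOXM1 list, 6 were higher and 1 was lower by edgeR (adjusted p under 0.05) (7.86% and 8.57% of all genes), with a median log2 fold change of 0.25. *Foxm1*, which drives G2/M transcription, rose by 1.08 on the log2 scale (edgeR adjusted p = 0.00329), and *Mybl2*, which encodes B-MYB, by 1.08 (adjusted p = 0.0215). *Tfdp1*, a partner of E2F factors, rose by 0.43 (edgeR adjusted p = 0.0309), and *E2f5*, a repressive E2F, fell by 0.41 on the log2 scale (adjusted p = 0.0241). The count of higher genes was 3 without cko library 1, and 1 without cko library 2 or 3. No gene of the list was called lower without any one of the cko libraries.

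Partners of Aurora A and of the RanGTP pathway came next. Of 26 genes, 10 were higher and 1 lower by edgeR (adjusted p under 0.05), against 7.86% higher and 8.57% lower over all tested genes, with a median log2 fold change of 0.26. *Kif11*, the motor that pushes spindle poles apart, was at 116 ± 7.12 normalized CPM in ctrl (SD, n = 2) and 262 ± 35.3 in cko (SD, n = 3), a rise of 1.18 on the log2 scale (edgeR adjusted p = 0.00221). *Plk1*, the kinase that BORA and Aurora A switch on, rose by 1.22 on the log2 scale (edgeR adjusted p = 0.00278). *Kpna2*, for the importin that holds TPX2 inactive, rose by 1.08 (adjusted p = 0.00274), and *Tacc3*, a spindle substrate of Aurora A, by 0.94 (adjusted p = 0.00287). *Cep192*, the centrosome scaffold of Aurora A, rose by 0.34 (edgeR adjusted p = 0.0253). *Ajuba*, for a LIM protein that can activate Aurora A, was the gene that fell, with a log2 fold change of -1.89 (edgeR adjusted p = 0.00558). *Numa1*, which focuses microtubules at the poles, and *Ckap5*, a microtubule polymerase, were not called, with log2 fold changes of 0.25 (95% interval 0.01 to 0.50) and 0.19 (0.02 to 0.35). The count of higher genes was 4 without cko library 2 and 5 without cko library 3.

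Microtubule nucleation was read in 21 genes of augmin and the γ-tubulin complex. Of these, 8 were higher and none was lower by edgeR (adjusted p under 0.05), against 7.86% higher and 8.57% lower over all tested genes, and the count of lower genes at an unadjusted p under 0.05 was 0. The median log2 fold change was 0.28. *Pcnt*, for the centrosome scaffold pericentrin, rose by 0.74 (edgeR adjusted p = 0.00665), *Nedd1*, which tethers the γ-tubulin ring, by 0.54 (adjusted p = 0.00996) and the augmin subunit *Haus4* by 0.92 (adjusted p = 0.0116). The count of higher genes was 1 without cko library 2 and 1 without cko library 3.

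Among 20 genes of topoisomerases and the chromosome surface, 5 were higher and 1 lower by edgeR (adjusted p under 0.05), against 7.86% higher and 8.57% lower over all tested genes, with a median log2 fold change of 0.18. *Kif4*, for a chromosome motor that works with condensin, rose by 1.303 (edgeR adjusted p = 0.00564). *Cdca2*, which encodes the KI67-related PP1 anchor Repo-Man, rose by 0.97 (adjusted p = 0.0106), and the nucleolar gene *Npm1* by 0.28 (adjusted p = 0.0359). *Top2b* rose by 0.35 (edgeR adjusted p = 0.0362), where *Top2a* had 1.21. *Top1mt*, the mitochondrial topoisomerase, fell by 1.11 on the log2 scale (edgeR adjusted p = 0.00991). *Nifk*, for a nucleolar protein that binds the FHA domain of KI67, was level at 31.6 ± 2.20 (SD, n = 2) and 31.9 ± 2.91 (SD, n = 3) normalized CPM (95% interval of the log2 difference -0.25 to 0.27). Without cko library 2 or 3 the higher genes numbered 1 and the lower genes 0.

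Proteins that bind microtubules outside mitosis were called in both directions, as were genes over the whole table. Of 25 tested genes, 4 were higher and 4 lower by edgeR (adjusted p under 0.05), against 7.86% higher and 8.57% lower over all tested genes, with a median log2 fold change of -0.08. *Stmn1*, for the microtubule destabilizer stathmin, rose by 1.19 (edgeR adjusted p = 0.00184), its relative *Stmn3* by 1.14 (adjusted p = 0.00106) and *Mapt*, which encodes tau, by 0.64 (adjusted p = 0.0222). *Map1b*, a neuronal microtubule protein, fell by 1.85 on the log2 scale (edgeR adjusted p = 0.000490), the end-binding gene *Mapre3* fell by 0.56 (adjusted p = 0.00495) and *Camsap2*, which caps minus ends, fell by 0.47 (adjusted p = 0.00803). Without cko library 2 or 3 there were 2 higher and 2 lower genes, and without cko library 1 there were 2 higher.

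**Figure D4:**
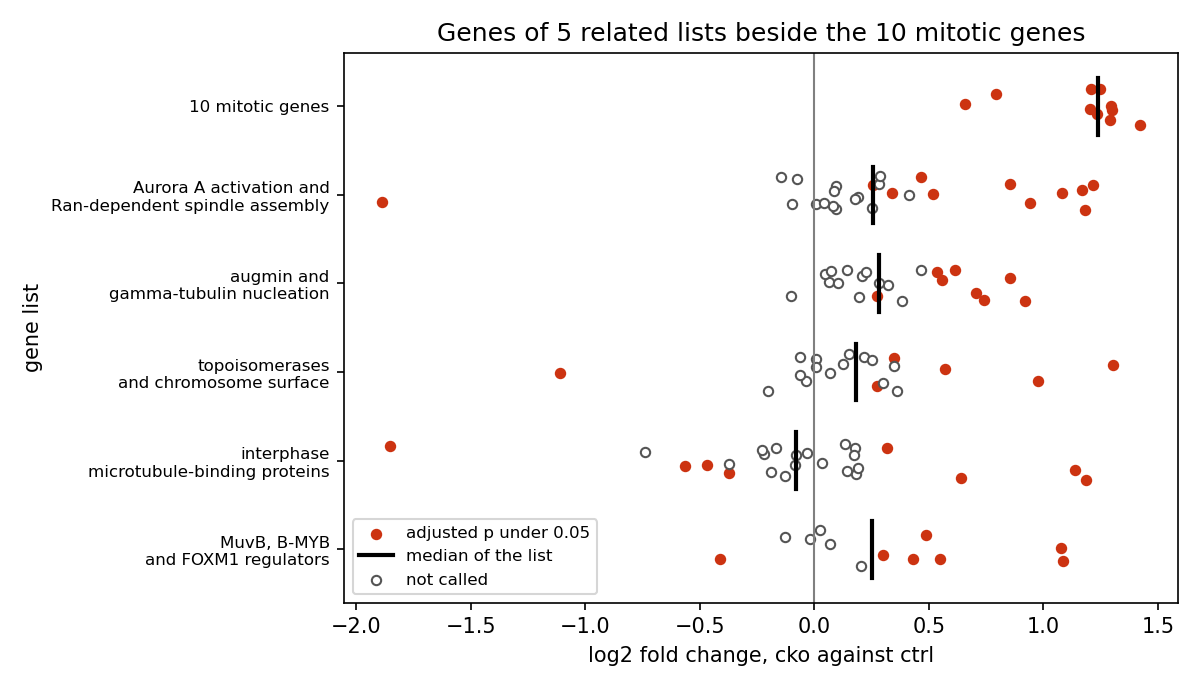
Log2 fold change of each tested gene in the 10 mitotic genes and 5 related lists (filled: adjusted p under 0.05 in edgeR, open: not called), with the median of each list as a black bar and that of all tested genes as a grey line. The 10 mitotic genes have a median of 1.24, and the medians of the other lists lie between -0.08 and 0.28. The Aurora A and Ran list and the topoisomerase list leave out the 10 genes. Their highest log2 fold changes were 1.22 and 1.30.

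The genes with the profile nearest to the mean of the 10 were found by the root mean square difference of centred log2(normalized CPM + 1) over the 5 libraries. They were *Kif11* (0.0181), *Rad54l* (0.0237), *Kif22* (0.0237), *Racgap1* (0.0276) and *Ect2* (0.029). *Rad54l* encodes a recombination helicase, *Kif22* a chromosome motor, and *Racgap1* and *Ect2* a pair of regulators of cytokinesis. Of the 10 genes themselves, *Top2a* lay nearest to their mean (0.0325) and *Bora* farthest (0.257). *Kif22* was at 41.1 and 47.3 normalized CPM in ctrl and at 82.8, 110 and 104 in cko libraries.

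Positions and overlaps were taken from GENCODE M21 on GRCm38, and the build of the counts is named differently by the paper and the submitters' notes. All 10 are protein-coding genes. *Tpx2* (2, 152847964 to 152895321), *Nusap1* (2, 119618298 to 119651244), *Aurka* (2, 172356190 to 172370535) and *Ckap2l* (2, 129268210 to 129297212) lie on chromosome 2, given in brackets with start and end. *Top2a* (98992943 to 99024189) and *Hmmr* (40701395 to 40733422) lie on chromosome 11, and *Bora* (99046222 to 99074540) and *Dlgap5* (47387779 to 47418407) on chromosome 14. *Mki67* lies on chromosome 7 (135689784 to 135716361) and *Ckap2* on chromosome 8 (22168160 to 22185819). *Nusap1* shares 172 exon bases with *Oip5* on the opposite strand, and without a stated strand setting reads there cannot be assigned. *Oip5*, for a centromere protein, was at 5.07 and 7.20 normalized CPM in ctrl and at 10.2, 12.5 and 13.0 in cko libraries, far under *Nusap1*. The 5S copy *n-R5s204* within a *Nusap1* intron had 0 counts in both ctrl libraries and 7, 12 and 13 in cko libraries. *Top2a* shares 122 exon bases with the snoRNA gene *Gm23451* on its own strand, which was not analysed here. *Ckap2l* shares 181 exon bases with the antisense gene *Gm14024*, which had at most 1 count in a library.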

How the data were processed

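RNA-seq counts were compared between miR-151 cko and ctrl neural stem cells (NSCs). Per the paper's methods, the authors filtered reads with NGSQC and aligned them with HISAT2. They deposited raw counts per Ensembl gene, without normalization. The genome build is mm10 in the paper's methods and GRCm39 in the submitters' processing notes. The counting tool and strand setting are not given in the sources used here. The ctrl replicate 2 column, which equals the rounded-up mean of ctrl replicates 1 and 3, was left out of the main comparison.

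Of 32493 IDs, 31836 were found in GENCODE M21 (GRCm38), the source of names, positions and merged exon lengths. The main comparison used edgeR 4.0.16 under R 4.3.3: filter on low counts by genotype, TMM normalization and the quasi-likelihood test, with Benjamini-Hochberg adjustment over all 16710 tested genes. Genes were called at an adjusted p under 0.05. The study's rule (log2 fold change beyond 0.9, unadjusted p under 0.01) was a second call. Standard errors are the log2 fold change divided by the square root of F. Levels between genes were compared as RPKM, computed here from normalized CPM and exon length. DESeq2 1.42.0, other normalizations and filters, left-out replicates, a block for the replicate number and fits of all 6 columns were alternatives. The steps were tested on simulated data.

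The labels do not say whether replicates came from separate embryos or litters. Each library held both *Xist* and Y-linked transcripts, so a library does not stand for a single embryo. The p-values thus measure only the spread between these samples. Floors reflect counting error alone. The 10 genes, the 5 lists, the marker lists and the naming rule were chosen with earlier results of these data known. The rule took all 10 genes, up to 3 called genes a list and direction with the smallest p, the listed partners of the 10 genes, genes overlapping them, and the 5 genes with the nearest profile. Promoter windows came from RefSeq (GRCm38.p6), matched by symbol. Figures were drawn with matplotlib 3.10.9.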

Additional observations from a re-analysis of the deposited data

How the results depend on the processing

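The 10 mitotic genes kept a positive log2 fold change under all 13 alternatives. With a cko library left out 8 to 10 were called, *Ckap2* and *Bora* being the ones lost without cko library 2 or 3. Leaving out a ctrl library left 1 library in that group, so calls of those fits are not given. The median of all genes lay between -0.0141 and 0.0126. With the replicate number as a block, which only replicates 1 and 3 carry, all 10 were called and their median log2 fold change was 1.15. Libraries sharing a number deviated together slightly (Pearson's r = 0.152 across genes). The paper calls the ctrl and cko embryos littermates. The labels match no libraries by litter or batch, so the number is all that same-numbered libraries are known to share. The block gave 5 higher genes in the augmin and γ-tubulin list, 3 in the topoisomerase and chromosome surface list and 0 lower genes in the MuvB list.

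Over all tested genes, calls ran from 317 to 1812 higher and from 416 to 2062 lower when a library was left out. All 6 columns gave 2865 and 2794 in edgeR and 2608 and 2539 in DESeq2, the study's rule 399 and 696, and no filter 2237 lower genes. With a library left out, higher and lower calls were 4 to 12 and 1 in the Aurora A and Ran list, 1 to 10 and 0 in the augmin and γ-tubulin list, 1 to 7 and 0 to 1 in the topoisomerase list, 2 to 5 and 2 to 6 in the interphase microtubule list, and 1 to 6 and 0 to 1 in the MuvB list. All 6 columns gave 10 (edgeR) and 11 (DESeq2) higher topoisomerase genes and 2 lower in edgeR, and 7 higher and 8 (edgeR) or 9 (DESeq2) lower interphase genes. Without a filter, 8 topoisomerase genes were higher. Fewer libraries or an averaged column enter these fits, and the cause of the other differences was not tested. The lowest count of the 10 genes in a library was 526, and the effect of depth on their calls was not tested.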
